A study of Mus musculus with 21 samples.

Results

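TTR-1236 and TTR-1186 are RNA interference agents directed against Ttr, and they were compared here at the higher of their doses, 2 µM. The comparison takes every library whose title names TTR-1236 at 2 µM (3 libraries) and every library whose title names TTR-1186 at 2 µM (3 libraries), 6 of the 21 libraries of the series. Cells in all groups were wild-type primary mouse hepatocytes, which are liver cells isolated and kept in culture, and RNA was taken on Day 1. The groups used beside the main pair were PBS, the vehicle (3 libraries), and the same agents at 0.2 µM (3 libraries each). A further agent, Reference 4, was also given at both doses (6 libraries) and enters only the estimate of the spread. Whether the replicates are separate cultures or animals is not stated in the labels, so p-values measure the spread between these libraries, which may be technical. The agents are known here by their code names alone.

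RNA interference uses a short double-stranded RNA, of which a single strand is loaded into an Argonaute protein and guides it to a matching mRNA. Ttr encodes transthyretin, a carrier of thyroid hormone and of retinol-binding protein that hepatocytes secrete in large amounts. Primary hepatocytes make most plasma proteins and carry out much of amino acid, lipid and metal metabolism, functions that fade as the cells are cultured.

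Levels are given as CPM, the authors' read counts scaled to a common library total over the 9657 genes in the files, and differences as TTR-1236 minus TTR-1186 on the scale of log2(CPM + 1), with the standard error. The words rose and fell, always for TTR-1236 relative to TTR-1186, are kept for genes with an adjusted p in limma under 0.05. The 6 libraries held 17753868 to 35065348 reads. The TTR-1186 replicate 2 library stood apart from the others of its group. It listed 109 genes at 0 where the other 20 libraries listed 0 to 29, and its mean correlation with the other libraries of its group was 0.925, against 0.951 and 0.9498 for replicates 1 and 3. Mitochondrial ribosomal RNA made up 0.622% of its reads, against 1.95% and 2.21% in replicates 1 and 3 and 0.278% to 0.487% in the TTR-1236 libraries. Counts of genes are therefore given with and without it, and other values are given without it where a call changed.

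Hepatocyte markers were high in every library, and 15 of 16 listed were measured, with a summed level of 30598 to 36344 CPM in TTR-1236 and 24968 to 30673 CPM in TTR-1186. Of the markers of other liver cells, 2 of 15 Kupffer cell and macrophage genes, 6 of 16 stellate cell and fibroblast genes, 4 of 15 endothelial genes, 7 of 12 cholangiocyte genes and 0 of 11 lymphocyte genes were measured. The summed stellate cell and fibroblast markers were at 55.4 to 66.1 CPM in TTR-1236 and 67.1 to 105 CPM in TTR-1186, narrowly without overlap. In PBS they were at 49.7 to 60.6 CPM. Of the 6 genes, 4 were lower and 2 higher with TTR-1236, and 0 passed the threshold. The libraries of the agents were separate downward for 2 of the 6, where 11.1% of all genes were. The part of these markers in the results was not tested. In such bulk RNA, fewer cells of a type and less RNA per cell cannot be told apart.

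Residual Ttr did not differ detectably between the agents. It was at 14.9, 17.3 and 7.77 CPM in the 3 TTR-1236 libraries and at 7.59, 15.1 and 10.4 CPM in the 3 TTR-1186 libraries, while PBS had a mean of 2258 ± 84.7 CPM (SD, n = 3). Both groups thus retained under 1% of the PBS level, 0.590% with TTR-1236 and 0.488% with TTR-1186, and their libraries overlapped. The log2 difference was 0.23 ± 0.42 (limma adjusted p = 0.834), with a 95% interval from -0.64 to 1.10, so a difference of about 2-fold in TTR-1236's direction lies within it and the agents are not shown to act alike. Without TTR-1186 replicate 2 the difference was 0.46 ± 0.46 (adjusted p = 0.692).

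Limma called few differences between the agents, and most of them were lower with TTR-1236. Of 9657 genes, 9 rose and 24 fell, or 0.0932% and 0.249% of the genes tested (0.342% together). The change was at least 2-fold on the log2(CPM + 1) scale in 4 of the 9 and 20 of the 24. Protein coding genes made up 21 of the 33, and 7 were pseudogenes, whose reads can come from the parent gene. For all 33 genes the libraries of the agents did not overlap, a pattern that held for 6.89% of all genes upward and 11.1% downward. At an unadjusted p under 0.05 there were 1526 genes. The number rests on the method, with 41 genes in edgeR, 306 in DESeq2 (76 higher, 230 lower) and 880 in limma with library weights (153 higher, 727 lower).

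**Figure D1:**
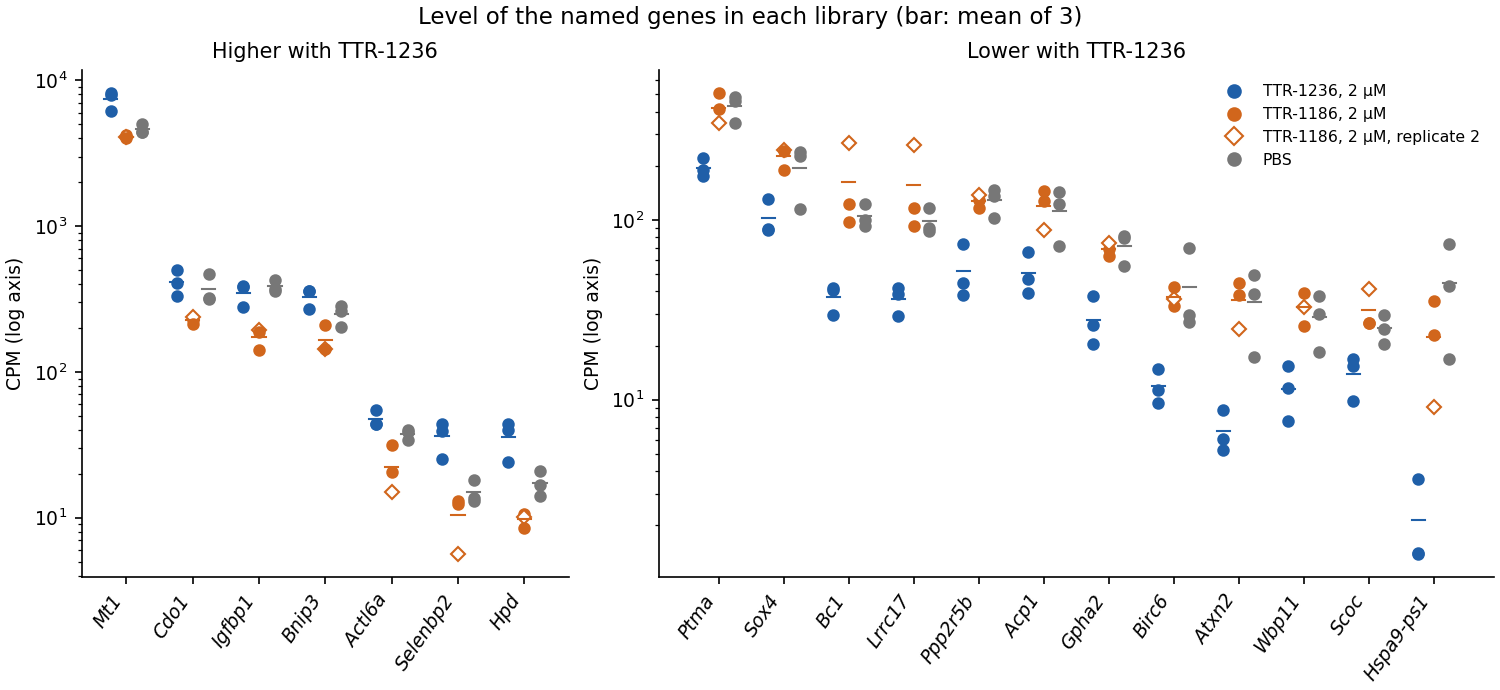
Level of each named gene in CPM (log axis) in the 3 libraries of TTR-1236 at 2 µM, TTR-1186 at 2 µM and PBS, with a bar at each mean and an open diamond for TTR-1186 replicate 2. Only called genes whose groups did not overlap were admitted. By that choice every TTR-1236 library lies above (left) or below (right) every TTR-1186 library, for example 24.0 to 44.0 against 8.52 to 10.6 CPM for Hpd.

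The genes that rose with TTR-1236 included secreted and metabolic genes of the liver. Igfbp1 encodes a liver-secreted protein that binds insulin-like growth factors and is repressed by insulin. It was at 279, 380 and 388 CPM with TTR-1236 and at 140, 194 and 188 CPM with TTR-1186 (log2 difference 1.00 ± 0.18, limma adjusted p = 0.0121). All TTR-1186 libraries were below all 3 PBS libraries (358 to 430 CPM), whereas the TTR-1236 mean of 349 CPM was close to the PBS mean of 386 CPM. Mt1 encodes metallothionein 1, a small protein that binds zinc and copper. Its level was 6130, 8148 and 7903 CPM with TTR-1236 against 4244, 4085 and 4012 CPM with TTR-1186 (0.83 ± 0.15, adjusted p = 0.0121). Here TTR-1186 lay beside PBS (mean 4615 CPM) and TTR-1236 above it. Its neighbour Mt2, named after its values were seen, was at 2581 to 3613 CPM against 2141 to 2820 CPM and did not pass (0.33, adjusted p = 0.238).

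Enzymes of amino acid metabolism were among the other rises. Hpd, the enzyme of tyrosine breakdown that makes homogentisate, was at 39.7, 44.0 and 24.0 CPM against 10.6, 10.1 and 8.52 CPM (1.74 ± 0.36, adjusted p = 0.0247). Cdo1, which oxidises cysteine, was at 331, 497 and 406 CPM against 226, 239 and 213 CPM (0.84 ± 0.16, adjusted p = 0.0147). The Cdo1 level with TTR-1236 was near that of PBS (mean 369 CPM), whereas Hpd in PBS (mean 17.2 CPM) lay between the agents. Selenbp2, a selenium-binding protein of liver, rose most by the fitted difference, from 12.3, 5.65 and 13.1 CPM to 25.3, 39.1 and 44.0 CPM (1.75 ± 0.32, adjusted p = 0.0135). Bnip3, which encodes a mitochondrial outer membrane protein that promotes mitophagy, was at 268 to 360 CPM against 143 to 209 CPM (1.00 ± 0.20). The antisense gene Gm45507, which overlaps it, gave nearly the same values in all libraries (r = 0.999 on the log2 scale), and without a stated strand setting the reads of the pair cannot be separated. Actl6a, a subunit of chromatin remodelling complexes, had 43.8 to 54.5 CPM against 15.0 to 31.6 CPM (1.11 ± 0.25, adjusted p = 0.0499), just inside the threshold. Just outside it were Arrb2, an arrestin gene (1.69, adjusted p = 0.0564), Serpina1d, an alpha-1-antitrypsin gene (0.79, adjusted p = 0.0653), and Chchd6, a mitochondrial cristae gene (1.32, adjusted p = 0.0673).

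The falls are given first for 5 genes of different roles. Ptma encodes prothymosin alpha, an abundant acidic nuclear protein, and was at 221, 190 and 174 CPM with TTR-1236 against 412, 347 and 506 CPM with TTR-1186 (-1.10 ± 0.19, limma adjusted p = 0.0121). The transcription factor gene Sox4 was at 130, 89.2 and 87.8 CPM against 189, 246 and 243 CPM (-1.15 ± 0.23, adjusted p = 0.0203). For both genes the TTR-1186 mean was near the PBS mean (428 and 194 CPM) and the TTR-1236 mean was below it. Wbp11, a splicing factor, was at 7.60 to 15.3 CPM against 25.8 to 39.3 CPM (-1.45 ± 0.29). Rbm8a, a core protein of the exon junction complex that lies outside the naming rule and was named after its values were seen, was at 133, 142 and 134 CPM against 206, 278 and 245 CPM (-0.82 ± 0.16, adjusted p = 0.0189). Birc6, a very large ubiquitin ligase that inhibits apoptosis, was at 9.63, 11.4 and 14.9 CPM against 33.0, 36.2 and 42.5 CPM (-1.57 ± 0.31, adjusted p = 0.0189).

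Atxn2, an RNA-binding protein of cytoplasmic granules, was among the largest falls of protein coding genes. It was at 6.08, 8.72 and 5.24 CPM with TTR-1236 and at 38.0, 24.6 and 44.6 CPM with TTR-1186 (-2.24 ± 0.40, limma adjusted p = 0.0121). In PBS it varied from 17.4 to 49.3 CPM, so that every TTR-1236 library was also below every PBS library. Its paralog Atxn2l, below the level that the naming rule asks for, had 1.01, 2.07 and 0.0936 CPM against 6.64, 7.71 and 14.6 CPM (-2.42 ± 0.52, adjusted p = 0.0329). Acp1, a small protein tyrosine phosphatase, was at 39.4 to 66.1 CPM against 87.3 to 145 CPM (-1.23 ± 0.24), and Scoc, a Golgi coiled-coil protein gene linked to autophagy, at 9.86 to 16.8 CPM against 26.8 to 41.3 CPM (-1.13 ± 0.25). Actn1, which encodes the actin crosslinker alpha-actinin 1, was at 510, 397 and 345 CPM against 670, 713 and 817 CPM (-0.83 ± 0.16, adjusted p = 0.0189). For Actn1 the PBS mean of 463 CPM was nearer to TTR-1236. Fdps, the farnesyl diphosphate synthase of the cholesterol pathway, was at 266, 202 and 234 CPM against 393, 352 and 376 CPM (-0.68 ± 0.13, adjusted p = 0.0153), with PBS at 274 CPM.

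Several of the falls were readings that share sequence or position with another gene. Ppp2r5b, a regulatory subunit of protein phosphatase 2A, was at 38.3 to 73.6 CPM against 117 to 138 CPM (-1.33 ± 0.23), and the gene Gpha2, which overlaps it on the other strand, gave parallel values (r = 0.996). Bc1, a small cytoplasmic RNA known from neurons, was at 41.8, 29.5 and 40.8 CPM against 123, 269 and 97.8 CPM (-1.97 ± 0.35, adjusted p = 0.0147). Its values were matched at a ratio of 1.05 by Lrrc17, which lies on another chromosome, so these count as a single signal of uncertain origin. Hspa9-ps1 was at 3.60, 1.39 and 1.40 CPM against 22.8, 9.06 and 35.2 CPM (-2.79 ± 0.47, adjusted p = 0.0121), while the parent gene Hspa9, named after its values were seen, did not pass (-0.11, adjusted p = 0.843). In all, 6 of the 33 genes form 3 such pairs. Hpd also overlaps Psmd9 on the other strand (r = 0.563), Actl6a overlaps Mrpl47 on the other strand (r = 0.887) and Fdps overlaps Gm43738 on its own strand (r = 0.793). How the reads of these genes were assigned is likewise uncertain.

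Mitochondrial transfer RNAs supplied 3 of the 24 falls. The mouse mitochondrial genome is read from both of its strands as long precursors, from which tRNAs are cut. All 3 are encoded on the minus strand, and mt-Tc and mt-Ty are neighbours. Without TTR-1186 replicate 2, mt-Tq and mt-Ty still fell (limma adjusted p = 0.0360 and 0.0279), mt-Tc did not pass (-0.73, adjusted p = 0.0662), and mt-Tl1, on the plus strand, fell (-1.14, adjusted p = 0.0395). Their sequences are shown because these are the shortest RNAs among the called genes, 66 to 71 bases long, and a method that reads polyadenylated 3′ ends is not designed for mature tRNAs. Each is written as DNA in the direction of the RNA, from GENCODE vM21 transcripts of GRCm38, with the anticodon in capitals.
mt-Tq (glutamine; chrM:3772-3842, minus strand): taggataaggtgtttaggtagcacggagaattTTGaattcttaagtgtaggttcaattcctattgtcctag
mt-Tc (cysteine; chrM:5192-5257, minus strand): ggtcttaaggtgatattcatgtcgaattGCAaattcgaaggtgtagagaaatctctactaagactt
mt-Ty (tyrosine; chrM:5260-5326, minus strand): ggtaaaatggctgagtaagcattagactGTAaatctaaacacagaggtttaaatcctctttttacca

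Read counts at mt-Ty were 117, 79.3 and 78.4 CPM with TTR-1236 and 139, 226 and 188 CPM with TTR-1186 (95% interval of the log2 difference -1.37 to -0.63, limma adjusted p = 0.0121). For mt-Tq they were 312, 213 and 178 CPM against 429, 635 and 416 CPM (-1.08 ± 0.21, adjusted p = 0.0157), and for mt-Tc 85.6, 79.1 and 73.4 CPM against 106, 210 and 164 CPM (-0.95 ± 0.20, adjusted p = 0.0329). The highest library was TTR-1186 replicate 2 for each of the 3, and mt-Ty and mt-Tc with TTR-1236 were at the PBS level (92.2 and 79.9 CPM). Of the 21 mitochondrial tRNAs measured, 17 were lower and 4 higher. The minus strand tRNAs mt-Ta, mt-Tn, mt-Tc and mt-Ty lie side by side, and for all 4 every TTR-1236 library was below every TTR-1186 library. Of all 21, 5 had groups separate downward and 1 upward, where 11.1% and 6.89% of all genes did. The minus strand tRNAs mt-Te (0.67) and mt-Ts1 (0.48) had higher values with TTR-1236 and did not pass. Of the 13 plus strand tRNAs, 11 had lower values, 0 with separate groups, and mt-Td had separate groups upward. The 13 mitochondrial mRNAs had a median difference of -0.09, with 0 past the threshold.

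Mitochondrial ribosomal RNA took a smaller share of the reads with TTR-1236. The share of mt-Rnr1 and mt-Rnr2 together was 0.487%, 0.471% and 0.278% with TTR-1236 against 1.95%, 0.622% and 2.21% with TTR-1186, so the groups did not overlap. The means were 0.412% ± 0.116 and 1.59% ± 0.852 (SD, n = 3 each; exact permutation p = 0.10, two-sided, the smallest that 3 against 3 can give). As single genes neither passed with all 6 libraries. Without TTR-1186 replicate 2, mt-Rnr2 fell (-2.45 ± 0.56, limma adjusted p = 0.0419) and mt-Rnr1 had -2.09 (adjusted p = 0.109). The share also varied within PBS, from 0.797% to 3.26%.

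**Figure D2:**
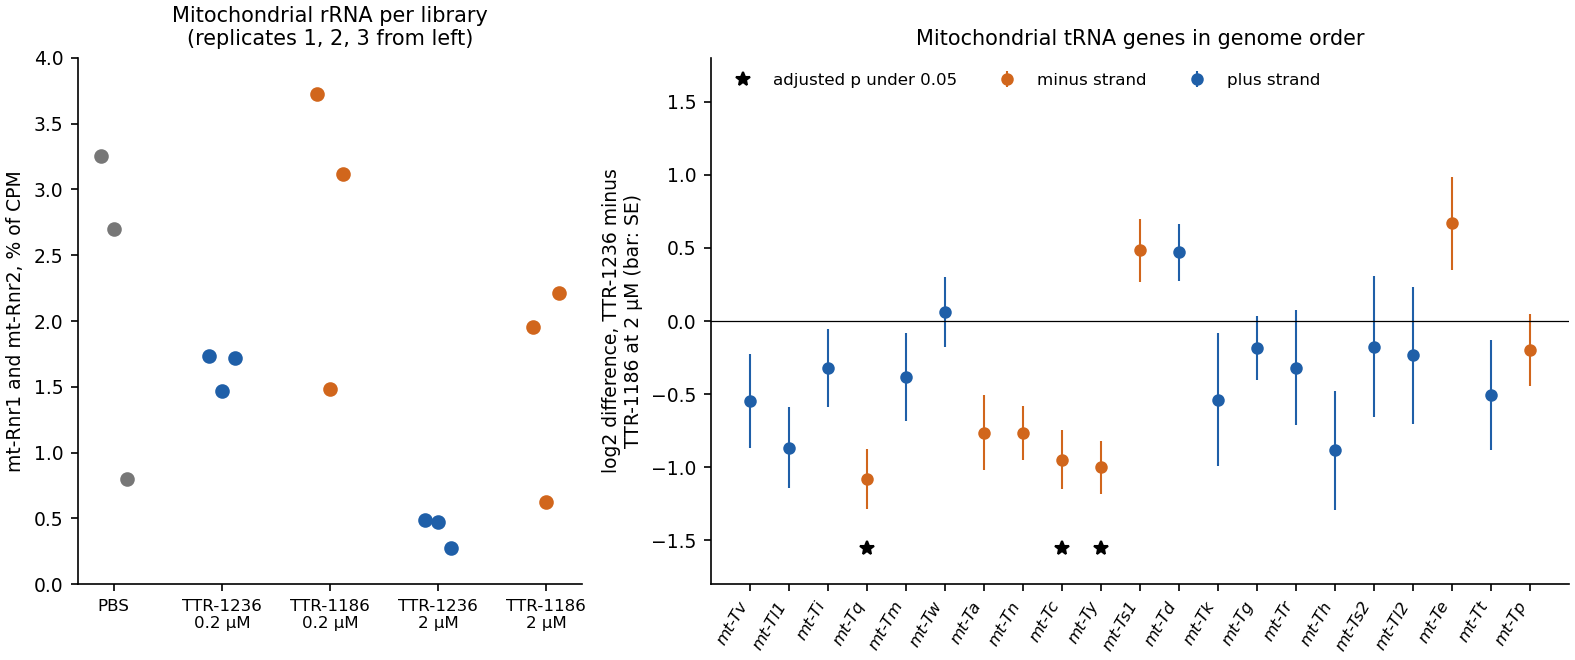
Left, share of CPM taken by mt-Rnr1 and mt-Rnr2 in each library of PBS and of both agents at both doses; the 3 TTR-1236 libraries at 2 µM, at 0.278% to 0.487%, are the lowest shown. Right, log2 difference between the agents at 2 µM, with its standard error, for each of the 21 mitochondrial tRNAs in genome order, with stars on the 3 that fell.

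Leaving out TTR-1186 replicate 2 raised the number of genes past the threshold from 33 to 181. Of these, 11 rose (0.114% of the genes tested) and 170 fell (1.76%; 1.87% together), and 28 of the 33 remained, 7 higher and 21 lower. The groups of 3 and 2 libraries did not overlap for any of the 181, as for 12.2% of all genes upward and 22.5% downward. The left-out library was below replicates 1 and 3 of its own group in 157 of the 170 falls. It lay within the range of the TTR-1236 libraries in 69 of them, above it in 88 and below it in 13. These genes were picked because replicates 1 and 3 were above TTR-1236, which favours a lower place for the left-out library. The same shares over all genes were not counted, so these positions are not read as a property of that library. Pseudogenes were 61 of the 170 falls, or 8.20% of the 744 measured, and protein coding genes 98, or 1.14% of 8584. The reads of 27 of the 181 genes were tied to another of them by overlap or by a near-constant ratio, in 8 groups, and each group amounts to a single signal.

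**Figure D3:**
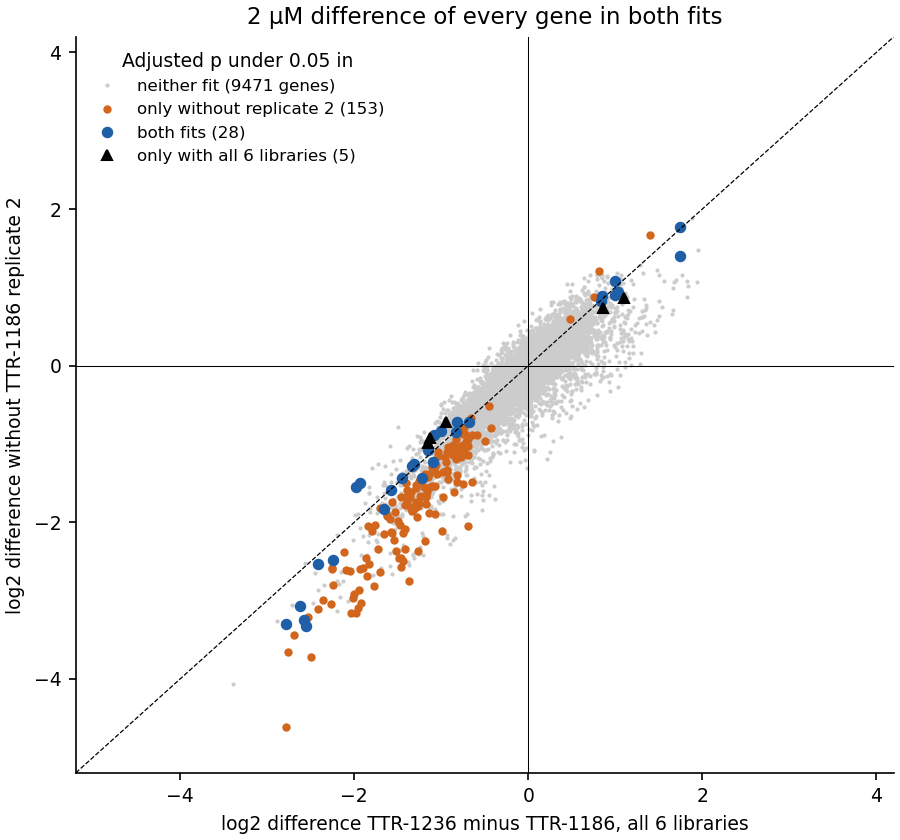
Log2 difference between the agents at 2 µM for each of 9657 genes, with all 6 libraries (horizontal) and without TTR-1186 replicate 2 (vertical). Most of the 153 genes called only without that library lie below the dashed line of equal values, on the lower side. They were picked for passing in the vertical fit and not in the horizontal one, so their place off the line is not read as a result.

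The falls seen only without that library included the nuclear RNA Malat1, a small nucleolar RNA and genes with long mRNAs. Malat1, a long noncoding RNA kept in nuclear speckles, was at 175, 138 and 72.0 CPM with TTR-1236 and at 530, 83.3 and 832 CPM with TTR-1186. Without TTR-1186 replicate 2, the 83.3 CPM library, it fell (-2.45 ± 0.59, limma adjusted p = 0.0488), and with it the groups overlapped (-1.46, adjusted p = 0.353). Gm37376 overlaps it on the other strand with parallel values (r = 0.988). Ash1l, a histone methyltransferase with a long mRNA, followed the same pattern, with 6.08, 3.99 and 9.13 CPM against 32.9, 2.78 and 32.3 CPM (-2.24 ± 0.37, adjusted p = 0.00617 without the library; adjusted p = 0.338 with it). Resf1, a factor that silences retroelements, was at 4.84 to 6.46 CPM against 29.3, 8.66 and 37.6 CPM (-2.34 ± 0.40 without the library, adjusted p = 0.00743). Kif21a, a kinesin gene, had -2.15 (adjusted p = 0.0454). The small nucleolar RNA Snord89 was at 1.75, 1.21 and 0 CPM against 46.2, 0 and 41.1 CPM, and is listed at 0 in TTR-1186 replicate 2 too (-4.61 without that library, adjusted p = 0.0335). Pseudogenes named by the rule were Hspd1-ps3, Mup-ps13, Cdv3-ps and Morf4l1-ps1, with differences of -3.21, -2.80, -2.59 and -2.14 without the library.

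Apob, which encodes the backbone protein of secreted lipoproteins and has a very long mRNA, was at 51.8, 33.4 and 21.6 CPM with TTR-1236 against 128, 41.2 and 121 CPM with TTR-1186. It fell without replicate 2 (-1.86 ± 0.40, limma adjusted p = 0.0279) and not with it (-1.34, adjusted p = 0.160). Cp, the copper carrier ceruloplasmin, was at 1403, 1247 and 1039 CPM against 1994, 1667 and 2491 CPM, and also fell only in the fit without that library (-0.87 ± 0.20, adjusted p = 0.0315). The same held for Eif3a (-1.47) and Eif4g1 (-0.87), scaffold proteins of translation initiation, for the fatty acid desaturase gene Fads2 (-1.08), and for the cytoskeletal genes Actb (-0.52) and Vim (-1.16). Vim, for example, was at 323, 374 and 348 CPM against 691, 608 and 875 CPM. Among rises, Fabp1, the liver fatty acid binding protein, was at 15.2, 36.3 and 29.2 CPM against 7.44, 13.5 and 7.11 CPM (1.67 ± 0.43, adjusted p = 0.0461 without the library), beside the pseudogene Atp5l-ps1 (1.20).

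Among protein coding genes the median difference was lower in bins of longer transcripts. When the protein coding genes were divided into 5 bins of annotated transcript length, the median log2 difference was 0.05, 0.00, -0.04, -0.08 and -0.21 from the shortest (up to 1888 bases) to the longest (from 5213 bases), and 0.07, 0.01, -0.04, -0.11 and -0.30 without TTR-1186 replicate 2. In the fit without that library the share of genes that fell was 0.466% in the shortest bin and 2.33% in the longest. The median transcript length was 4627.5 bases for the 98 protein coding genes that fell there and 3326.5 bases for all protein coding genes. It was 2855 bases for the 14 that fell with all 6 libraries. Over genes of all types the order was the other way, with 2771.5 bases for the 170 falls and 3060 bases for all genes. By GC content, the medians were -0.22 in the lowest bin and 0.06 in the highest (-0.30 and 0.07 without the library). The part of RNA quality or library preparation in this was not tested.

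**Figure D4:**
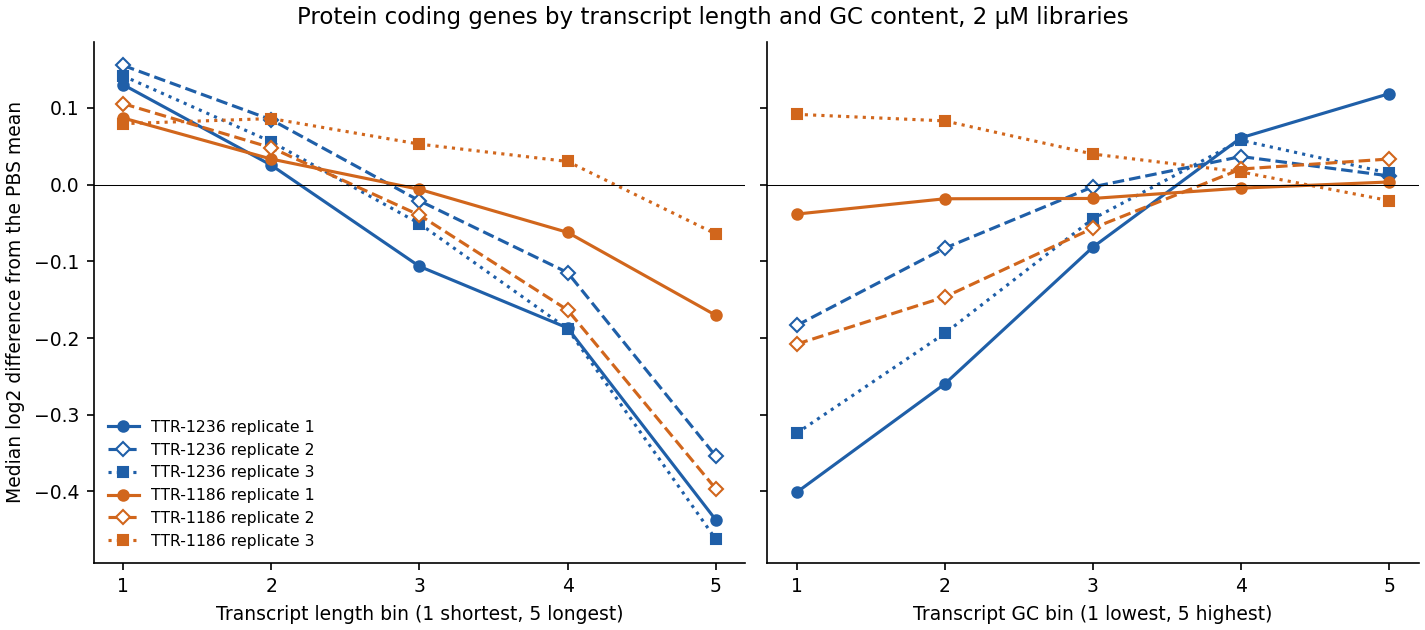
Median log2 difference from the PBS mean over the protein coding genes of 5 bins of transcript length (left) and GC content (right), with a line for each of the 6 libraries at 2 µM. In the longest bin the TTR-1236 libraries are at -0.35 to -0.46 and TTR-1186 replicate 2 at -0.40, below TTR-1186 replicates 1 and 3 at -0.17 and -0.06.

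Gene lists were read by their counts beside those of all genes, where 4383 were higher and 5274 lower with a median of -0.04. Liver secretory lists leaned upward with few single calls. Of 28 acute phase proteins, the plasma proteins of inflammation, 25 were higher with a median of 0.28. Mt1 rose and 0 fell, and Lcn2, a siderophore binder (0.64, limma adjusted p = 0.0717), and Serpina3k (0.54, adjusted p = 0.0867) did not pass. Secreted liver proteins and apolipoproteins were higher in 28 of 35 (median 0.19), with 0 past the threshold (without TTR-1186 replicate 2, 1 lower) and Apoe, a ligand for lipoprotein uptake, at 0.50 (adjusted p = 0.0769). Hepatocyte markers were higher in 14 of 15 (median 0.36, 0 past), although Alb itself had 4719 to 7257 CPM against 4712 to 5356 CPM (0.25, adjusted p = 0.386). Hepatocyte transcription factors went the other way, lower in 13 of 17 (median -0.14, 0 past). Under TMM scaling 11 of 17 were lower, and without TTR-1186 replicate 2 it was 10 of 17. Of 25 amino acid and urea cycle enzymes 17 were higher (median 0.28; 15 without TTR-1186 replicate 2); Hpd rose, and Fah, another enzyme of tyrosine breakdown, had 0.56 (adjusted p = 0.0905). Mitochondrial rRNA and long transcripts were lower in the same libraries, as given above, and their part in these lists was not tested.

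Other lists differed in direction. Fatty acid oxidation and ketogenesis genes were lower in 20 of 28 (median -0.06, 0 past with all 6 libraries), and in 14 of 28 under TMM scaling. RNAi and microRNA genes were lower in 17 of 20 (13 of 20 under TMM scaling), with a median of -0.30 and 0 past the threshold in either fit. In that list Ddx6, a helicase of mRNA silencing and decay, was at 44.1, 30.6 and 34.6 CPM against 64.9, 62.4 and 69.7 CPM (-0.85, limma adjusted p = 0.0879), and Ago2, the slicing Argonaute, at 62.5 to 96.6 CPM against 87.2 to 109 CPM (-0.33, adjusted p = 0.457). Cholesterol synthesis and uptake genes were lower in 17 of 27 (14 of 27 under TMM scaling). Fdps fell, and Srebf2, the regulator of the pathway, had -1.08 (adjusted p = 0.0753). Cytoskeleton and dedifferentiation genes were lower in 24 of 43, with Actn1 past the threshold (3 genes without TTR-1186 replicate 2). Proteasome subunits were lower in 25 of 36 (median -0.12, 0 past). Nuclear-encoded respiratory chain subunits were higher in 57 of 75 (median 0.09) and cytosolic ribosomal proteins in 56 of 82 (median 0.06), both with 0 past. RNA sensors and interferon response genes had a median of 0.04 with 0 of 36 past, among them Irf7 (0.83, adjusted p = 0.0846) and the double-stranded RNA kinase Eif2ak2 (-1.16, adjusted p = 0.0956). NF-kB targets and chemokines had 0 of 13 past. The retinol carrier Rbp4 (0.15), the kinase gene Jak1 (-0.32) and Gipc1, a trafficking adaptor (0.71), did not pass either. Asgr1, a subunit of the asialoglycoprotein receptor, had 53.3 to 62.4 CPM against 45.7 to 87.8 CPM (0.01, adjusted p = 0.994), a value whose sign differed between tools.

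Promoter windows of Mt1 and Igfbp1, which rose, and of Mt2, which did not pass, follow, to give the sequence beside the levels. Each holds the 250 bases before the annotated start (RefSeq, GRCm38.p6), and may not cover the promoter in use. Capitals mark matches, on either strand, to TGCACNC or TGCGCNC, forms of the metal response element core, in Mt1 and Mt2, and to CAAAACA, the core of an insulin response element, in Igfbp1.
Mt1 (chr8:94178839-94179088, plus strand): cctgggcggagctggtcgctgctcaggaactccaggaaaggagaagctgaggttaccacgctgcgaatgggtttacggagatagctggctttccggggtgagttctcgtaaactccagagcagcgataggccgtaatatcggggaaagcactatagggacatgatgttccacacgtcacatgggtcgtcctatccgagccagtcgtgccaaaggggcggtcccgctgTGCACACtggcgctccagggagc
Mt2 (chr8:94172368-94172617, plus strand): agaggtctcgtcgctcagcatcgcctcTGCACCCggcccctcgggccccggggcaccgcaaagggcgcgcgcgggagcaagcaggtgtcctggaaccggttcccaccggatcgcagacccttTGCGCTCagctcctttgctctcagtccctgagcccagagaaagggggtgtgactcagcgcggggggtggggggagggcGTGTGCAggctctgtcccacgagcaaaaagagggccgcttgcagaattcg
Igfbp1 (chr11:7197537-7197786, plus strand): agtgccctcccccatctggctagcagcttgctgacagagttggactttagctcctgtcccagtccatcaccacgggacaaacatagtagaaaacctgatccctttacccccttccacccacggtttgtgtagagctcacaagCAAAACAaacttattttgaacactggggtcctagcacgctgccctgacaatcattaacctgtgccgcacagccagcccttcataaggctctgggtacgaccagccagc

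The Mt1 window has 1 match and the Mt2 window has 3, none overlapping another. Of 32851 promoter windows of this length, 21.4% hold at least 1 and 1.26% at least 3. The Igfbp1 window has 1 match, and 5.56% of windows hold at least 1. A match describes the letters only. The counts hold for these windows alone, which depend on the annotated start, and matches outside them were not counted. They do not give the number of elements in the whole promoter of a gene and do not rank Mt1 against Mt2. The part of the matches in the levels was not tested.

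At 0.2 µM limma called 0 of 9657 genes between the same agents (685 at an unadjusted p under 0.05), edgeR 0 and DESeq2 3. With library weights limma called 402 (136 higher, 266 lower). These libraries are not shared with the 2 µM comparison. Of the 33 genes called at 2 µM, 30 had the same sign at 0.2 µM (57.6% of all genes did), and all 33 had a smaller difference. Their median size was 1.149 at 2 µM and 0.28, in the same direction, at 0.2 µM. Genes picked by their 2 µM differences tend to have smaller ones in any other libraries, so no dose effect is read from these sizes. Igfbp1 at 0.2 µM was at 202, 195 and 183 CPM with TTR-1236 and 179, 180 and 112 CPM with TTR-1186 (0.33, limma adjusted p = 0.721), below every PBS library with both agents. Atxn2 was at 26.2 to 32.2 CPM against 31.6 to 63.8 CPM (-0.79, adjusted p = 0.698). Cdo1 was at 249, 330 and 288 CPM against 216, 210 and 195 CPM, without overlap (0.47, adjusted p = 0.558). Hpd (0.11) and mt-Tq (0.01) had almost none. The test of the difference itself, the agent difference at 2 µM minus that at 0.2 µM, called 0 genes (658 at an unadjusted p under 0.05; edgeR 0 and DESeq2 0), so a dependence on dose is not shown for any single gene.

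**Figure D5:**
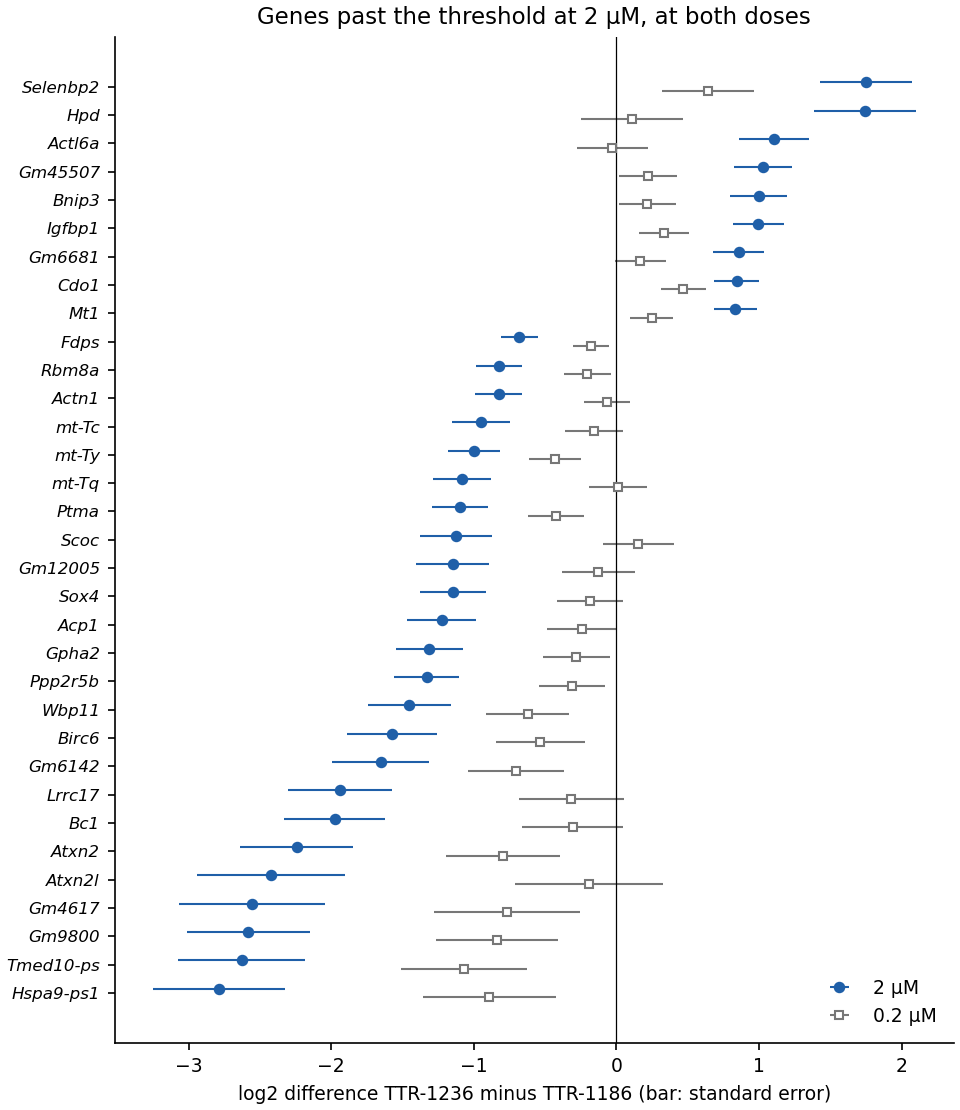
Log2 difference TTR-1236 minus TTR-1186, with its standard error, at 2 µM (filled) and 0.2 µM (open) for the 33 genes past the threshold at 2 µM. Every 0.2 µM point is nearer to 0 than its 2 µM point, and 3 genes (Actl6a, Scoc and mt-Tq) lie on the other side of 0. The genes were picked by their 2 µM differences, so the smaller sizes at 0.2 µM are not read as a dose effect.

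Set beside PBS, TTR-1186 had the closer mean for most of the falls. The PBS mean was closer to the TTR-1186 mean for 20 of the 24 genes, and above the highest TTR-1236 library for 21. For 7 of the 24 it lay outside the range between the means of the agents. These are positions of means, with no test against PBS. The same share over all genes was not counted, so these positions are not read as particular to the falls. For the 9 rises the PBS mean was closer to TTR-1186 for 4. The 4 exceptions among the falls were Actn1, Fdps, mt-Ty and mt-Tc, where TTR-1236 was nearer to PBS.

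The count of 33 depended on single libraries. It was 170, 2 and 1 without TTR-1236 replicates 1, 2 and 3, 181 and 8 without TTR-1186 replicates 2 and 3, and, among libraries outside the comparison, 233 without PBS replicate 3 and 59 without TTR-1186 0.2 µM replicate 2. Of the 33 genes, 0 passed in all 6 fits that left out a compared library and 8 passed in 4 of them, namely Igfbp1, Selenbp2, Bc1, Lrrc17, Ppp2r5b, Gpha2, mt-Tq and Tmed10-ps, a pseudogene named after its values were seen.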

How the data were processed

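RNA of primary mouse hepatocytes was measured by QuantSeq 3′ mRNA sequencing. The authors deposited CPM values for 9657 genes in each of 21 libraries. Cutadapt 1.15, HISAT2 2.1.0, featureCounts and mm10 are named per the submitters' processing notes; the sources used here give no settings, strand mode, annotation release or gene filter. All values were whole multiples of 1 read within 0.001 reads, which gave reads for edgeR and DESeq2 and library totals of 14158740 to 37410773.

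Differences were fitted on log2(CPM + 1) with limma 3.58.1 (R 4.3.3; trended, robust variance) on 7 group means over 21 libraries, and over 20 without TTR-1186 2 µM replicate 2. P-values were adjusted by the Benjamini-Hochberg method over all 9657 genes, with a threshold of 0.05. A contrast of contrasts tested 2 µM against 0.2 µM. Alternatives were other pseudocounts (0.5 and 5), TMM and size factor scaling, a minimum of 10 CPM, fewer libraries, a replicate block, library weights, edgeR 4.0.16, DESeq2 1.42.0, and leaving out each library. Leaving out libraries outside the comparison was chosen after seeing the data. On simulated data with 100 genes changed per fold size among 9657 for the 2 µM comparison, limma recovered 37% of 2-fold and 76% of 4-fold changes, and called 4 unchanged genes.

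Gene types, lengths and positions came from GENCODE vM21 (GRCm38), in which 9652 genes matched. Named were genes past the threshold whose groups did not overlap and whose mean reached 10 CPM (the 12 largest each way, predicted genes only counted), in both fits; where under 10 genes passed in a direction, the 10 with the smallest p; up to 3 members with the smallest p of each list; and Apob, Rbp4, Alb, Igfbp1, Jak1, Gipc1, Asgr1, Ago2, mt-Rnr1, mt-Rnr2 and Ttr. Members and lists were chosen with earlier results of these data known. The closest pair of replicates differed by more than sampling noise (chi-square per degree of freedom 25.1). A result on a set of pseudogenes is not reported here.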

Additional observations from a re-analysis of the deposited data

How the results depend on the processing

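Over 1055 combinations of the 33 genes and the alternatives, 883 kept the call and 0 changed direction. Where 1 library was left out, the direction was fixed beforehand. The groups of these genes did not overlap, and libraries outside the comparison do not enter the difference. The absence of reversals is therefore not read as support. Of the 33 genes, 10 kept the call in every alternative that leaves no library out. The number of genes called was 19 with only the libraries compared, 306 with DESeq2 (76 higher, 230 lower) and 880 with library weights (153 higher, 727 lower). Leaving out 1 compared library gave 1 to 181, and leaving out 1 of the 15 others gave 30 to 233, with 59 without TTR-1186 0.2 µM replicate 2 and 233 without PBS replicate 3. The 181 genes of the fit without TTR-1186 replicate 2 became 294 with only the libraries compared, 392 with DESeq2 and 1027 with library weights. Leaving out a further compared library gave 1 to 328 (328, 72 and 29 without TTR-1236 replicates 1, 2 and 3; 4 and 1 without TTR-1186 replicates 1 and 3), and another library 127 to 553, with 310 without TTR-1186 0.2 µM replicate 2 and 553 without PBS replicate 3. At 0.2 µM the count of 0 became 402 with library weights and 3 with DESeq2. For the difference between doses it became 1 with library weights and 0 to 3 on leaving out a library (3 without TTR-1236 2 µM replicate 2). Pseudocount, scaling, the 10 CPM minimum and edgeR kept the total counts within 1.5 times, although the 11 rises without TTR-1186 replicate 2 became 18 with TMM factors, 25 with size factors and 18 to 21 with edgeR. With the replicate number as a block the count was 50 (10 higher, 40 lower); between the groups compared, same-numbered libraries had r of deviations of -0.12 to 0.13, short of the 0.1 asked of every pair, so they were not treated as paired. Among the other groups of the block fit, all 3 pairs passed 0.1 for Reference 4 and TTR-1236 at 2 µM (0.102 to 0.289) and for PBS and Reference 4 at 2 µM (0.102 to 0.165). The sign of Asgr1 turned under edgeR (-0.00828 and -0.00201), DESeq2 (-0.00224) and on leaving out 1 of 4 of the compared libraries (range over all 6 -0.16 to 0.30, among them -0.12, -0.04 and -0.00475). The cause of these changes was not tested. With 3 libraries a group and no outlying library, of simulated 2-fold changes 37% were recovered.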

Other observations

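Reference 4 at 2 µM, which enters none of the comparisons above, had a mitochondrial ribosomal RNA share of 0.383% to 1.10% of reads, with a median of 0.819%. At 0.2 µM its share was 2.13% to 3.50%. The 7 small nucleolar RNAs measured had a median log2 difference between TTR-1236 and TTR-1186 of -1.16 at both doses, with 0 past the threshold at either dose and 2 lower at 2 µM without TTR-1186 replicate 2. Fabp1 had nearly the same difference at 0.2 µM (19.0, 17.1 and 8.25 CPM against 8.66, 4.90 and 3.19 CPM; 1.27, limma adjusted p = 0.558) as at 2 µM (1.40, adjusted p = 0.0968). Gipc1 was above all 3 PBS libraries (5.58 to 8.90 CPM) with both agents at 2 µM, at 24.4 to 39.1 CPM with TTR-1236 and 16.7 to 19.8 CPM with TTR-1186.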
